A study of Mus musculus with 24 samples.

Results

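Across 6 peak lists of mouse liver, 49364 regions of open chromatin were found on the 19 autosomes, and 3072 of them (6.22%) held a peak in A/J liver after return from high fat diet and on control diet but none on high fat diet. They were chosen by merging peaks that shared 1 bp or more and keeping regions with a peak in the A/J Reversal list and in the A/J Control list and none in the A/J HF list. Among the 39145 regions with any A/J peak they made up 7.85%, and they covered 1183407 of the 30441850 bases in all regions. HF here stands for 16 weeks on high fat diet, Reversal for 8 weeks of it followed by 8 weeks on control diet, and Control for 16 weeks on control diet. Livers came from A/J and C57BL/6J mice, both inbred strains, each with 2 FAIRE-seq libraries per diet, 12 in all, and neither sex nor age of the mice is stated in the sources used here. Nor do they state whether the 2 libraries of each diet were made from different mice, or pooled for a list. The deposited data hold 1 list per strain and diet, so differences between lists have no replicate check, no test was run on them, and intervals on shares cover counting error only. HF, Reversal and Control are separate groups, so a region was absent from the HF list and present in the lists of other mice, and its loss and return were not followed in the same animals.

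FAIRE-seq recovers DNA that is poorly crosslinked to nucleosomes, and its peaks mark promoters, enhancers and other regulatory elements that are open in a tissue. In liver much of this open chromatin is bound by factors of hepatocyte identity and by nuclear receptors that respond to lipids and bile acids. C57BL/6J mice are known to become obese and insulin resistant on high fat diet, while A/J mice are known to be relatively resistant.

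Each listed peak carries a signal given by the authors, whose scale is not stated, and it serves here to rank peaks within a list. A rank of 80% means that 80% of the peaks of that list were at least as strong. The 3072 regions were weak in both lists that chose them: the median rank was 85.3% in the A/J Reversal list and 82.9% in the A/J Control list. The middle 50% of regions ranked from 76.9% to 92.6% on Reversal and from 74.4% to 90.8% on Control. Only 6 had a Reversal peak and 9 a Control peak in the stronger 50% of the list, and 3 had both there. In contrast, regions with a peak in all 3 A/J lists, 28711 in number, had median ranks of 43.8% on HF, 41.8% on Reversal and 40.3% on Control. Other regions missing from some A/J lists were weaker still. The median Control rank was 92.8% with a Control peak alone and 88.9% with HF and Control, and the median Reversal rank was 92.6% with a Reversal peak alone and 89.5% with HF and Reversal. These ranks come from the lists that chose the regions and are given as a description.

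The share of regions that lacked an HF peak grew with rank. Of the 31783 A/J regions shared by Reversal and Control, 9.67% had no HF peak (95% Wilson interval 9.35 to 9.995). None of the 10699 such regions in the strongest 30% of the Control list lacked one. At a Control rank of 50 to 60%, 88 of 3518 regions lacked one. The share was 10.9% of 3464 regions at 60 to 70%, 24.5% of 3143 at 70 to 80%, 41.4% of 2385 at 80 to 90% and 56.0% of 1502 at 90 to 100%. The A/J HF list was also the shortest of the strain, with 33216 autosomal peaks against 34741 on Reversal and 35811 on Control. With every list held to its strongest 31669 peaks, 2050 regions met the rule.

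Absence from HF was the most frequent of the 3 kinds of absence from a single list in A/J. Regions with peaks on HF and Control and none on Reversal numbered 1194, which is 3.99% of the 29905 regions shared by HF and Control (3.78 to 4.22). Regions with peaks on HF and Reversal and none on Control numbered 495, or 1.69% of 29206 (1.55 to 1.85). The same order was not seen in C57BL/6J, where 5.37% of regions shared by Reversal and Control lacked an HF peak (5.10 to 5.64), 5.57% of those shared by HF and Control lacked a Reversal peak (5.31 to 5.85) and 7.42% of those shared by HF and Reversal lacked a Control peak (7.11 to 7.73). In the weakest 10% of the Control list, Reversal and Control regions lacked an HF peak in 56.0% of cases in A/J (53.5 to 58.5) and in 31.4% in C57BL/6J (28.8 to 34.2). Both strains have 1 list per diet, so this difference has no test.

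Of the A/J Control regions with no HF peak, 5363 in number, 3072 (57.3%, 56.0 to 58.6) had a Reversal peak, and the other 2291 had a Control peak alone. This share was highest among the stronger regions. It was 96 of 98 at a Control rank of 40 to 60% (98.0%, 92.9 to 99.4), 1146 of 1324 at 60 to 80% (86.6%, 84.6 to 88.3) and 1829 of 3940 at 80 to 100% (46.4%, 44.9 to 48.0). In C57BL/6J it was 24.7% of 5826 Control regions with no HF peak (23.6 to 25.8), not split by rank. The C57BL/6J Reversal list was the shortest of the 6, with 31669 autosomal peaks, and the difference between strains was not tested. Of the 29905 A/J Control regions with an HF peak, 28711 had a Reversal peak. At a Control rank of 40 to 60% all 6953 of these had one. At 60 to 80% 5461 had one and 229 had none, and at 80 to 100% 2058 had one and 965 had none. In each of these bins, A/J Control regions with no HF peak thus had a Reversal peak less often than those with one.

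**Figure D1:**
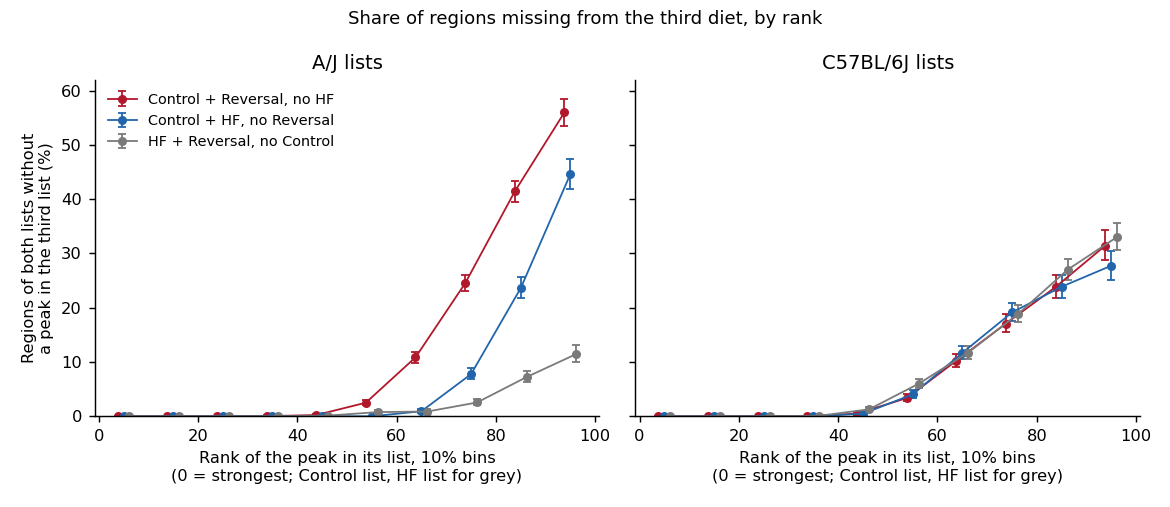
Percentage of regions with peaks on 2 diets that lack a peak on the third, by rank of the peak in 10% bins (Control list for red and blue, HF list for grey; 0 is the strongest peak), in A/J (left) and C57BL/6J (right); bars are 95% Wilson intervals. In A/J the red line, regions of Reversal and Control without an HF peak, climbs to 56.0% in the weakest bin, above the other lines, while the 3 lines of C57BL/6J lie close together.

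Regions just inside and just outside the rule show where the lists end. The lowest signals were 0.107 in the A/J HF list, 0.125 in the A/J Reversal list and 0.119 in the A/J Control list. The regions with the weakest Control peak lay on chromosome 11 from 61359944 to 61360262 and on chromosome 14 from 79908546 to 79908788, both with a Control signal of 0.119, the lowest of that list, and Reversal signals of 0.164 and 0.176. The weakest Reversal peaks, both at 0.1249, belonged to regions on chromosome 7 from 52121629 to 52122550 and on chromosome 3 from 129762982 to 129763385. Their Control signals were 0.133 and 0.1196. Just outside the rule lay a region on chromosome 10 from 79276755 to 79277516, whose HF signal of 0.107 was the lowest of its list, with 0.209 on Reversal and 0.193 on Control. In 1469 of the 3072 regions (47.8%) 1 or both peaks fell in the weakest 10% of a list, and in 413 (13.4%) both did.

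The peak names in the lists carry serial numbers that increase along each chromosome, and most numbers are missing from the lists. The A/J HF list ran to a total of 150636 numbers and held 22.5% of them, against 30.4% of 116089 for Reversal and 26.4% of 137787 for Control. A number missing between neighbouring listed peaks is read here as a peak that was numbered and then left out of the list. Of the 3072 regions, 3070 lay between 2 listed HF peaks of their chromosome, in 2733 gaps, and every one of these gaps lacked at least as many HF numbers as it held such regions. Taken over regions, so that a gap with several regions counts more than once, the median was 6 missing numbers over a median gap of 39985.5 bp.

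This was also the case in short gaps, where the missing number lies close to the region. All 10 gaps under 1 kb and all 46 gaps of 1 to 2 kb that held a region of this kind lacked 1 or more HF numbers. Of HF gaps in the same length bins that held no region of the other 5 lists, 22.7% of 4431 under 1 kb (21.4 to 23.9) and 55.5% of 1673 at 1 to 2 kb (53.1 to 57.9) lacked a number. Within these bins the gaps that held a region were longer, with medians of 812.5 against 294 bp under 1 kb and 1637.5 against 1458 bp at 1 to 2 kb, and longer gaps lacked numbers more often. At 5 to 10 kb, where the medians were 7383.5 and 7232 bp, the shares were 100% of 242 gaps (98.4 to 100) and 68.4% of 3093 gaps (66.8 to 70.1). Regions with a Control peak alone had the same property, with a missing HF number at 2291 of 2291. With a Reversal peak alone, 2 of 1463 regions lay in an HF gap with no missing number. The property was not particular to absence from HF. A Reversal number was missing at all 1192 regions of HF and Control between listed Reversal peaks. A Control number was missing at all 495 regions of HF and Reversal. The position of a number left out is not in the list, so whether it falls inside the region is not known. None of the 3070 regions between listed HF peaks lay in a gap with no missing number, and whether an unlisted HF peak lay at any of them was not tested. The rule picks regions without a listed HF peak, and the list does not give how open they were on HF.

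**Figure D2:**
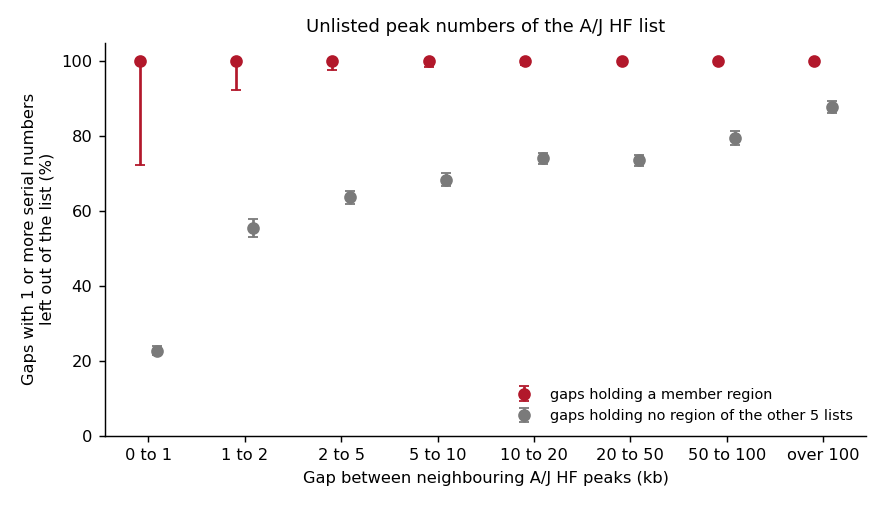
Percentage of gaps between neighbouring A/J HF peaks in which 1 or more serial numbers are missing, by length of the gap in kb, for gaps that hold a region of Reversal and Control without HF (red) and gaps that hold no region of the other 5 lists (grey); bars are 95% Wilson intervals. All red points are at 100%, from 10 gaps under 1 kb to 680 gaps over 100 kb, while grey points run from 22.7% to 87.9%.

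Which regions met the rule moved with the cutoff of the lists. When only the strongest 80% of each list was used, 2383 regions met the rule, and 629 of them (26.4%) were among the 3072. The 629 regions are also those of the 3072 whose Reversal and Control peaks were both in the strongest 80% while the whole HF list held none, and they made up 20.5% of the regions.

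The peaks on Reversal and on Control lay at the same place. The summits, the highest points of the peaks, were a median of 8 bp apart, and in 2974 regions (96.8%) they were within 50 bp. In 3064 regions there was exactly 1 peak in each list. The rule asked for 1 bp of overlap in a chain of peaks and did not fix the summits. At a Control rank of 80 to 100% the median summit distance was 8 bp in the regions without HF, against 9 bp in regions with all 3 A/J peaks.

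The ranks on Reversal and Control agreed loosely. Spearman's rho was 0.39 across the 3072 regions, and 0.97 across the 28711 regions with a peak in all 3 A/J lists. Within the Control rank of over 60% the values were 0.35 over 2975 regions and 0.54 over 7519. These points share 2 lists and a narrow range of ranks, and regions are not replicates. In 1860 regions (60.5%) the ranks were within 10 points of each other, and in 252 (8.20%) they were over 20 points apart. The median of Reversal rank minus Control rank was 2.26 points: 1786 regions ranked weaker on Reversal than on Control and 1286 ranked stronger. Among regions with all 3 A/J peaks it was 1.03 points. At a Control rank of 40 to 60% the medians were 10.9 points without HF and 2.75 points with all 3 A/J peaks. They were 8.38 and 3.15 points at 60 to 80%, and -1.60 and -2.77 points at 80 to 100%. Control rank sets these bins and also enters the difference.

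The regions were narrow. Their median width was 323 bp, with 90% of them at or under 593 bp, 1218 (39.6%) under 300 bp and 43 (1.40%) over 1 kb. Regions with all 3 A/J peaks had a median width of 647 bp, but weaker peaks are narrower. At a Control rank of 60 to 80% the median Control peak was 318 bp wide in the regions without HF and 361 bp in regions with all 3 A/J peaks, and at 80 to 100% it was 287 and 319 bp. Regions with a Control peak alone had Control peaks of 343 and 289 bp at these ranks.

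**Figure D3:**
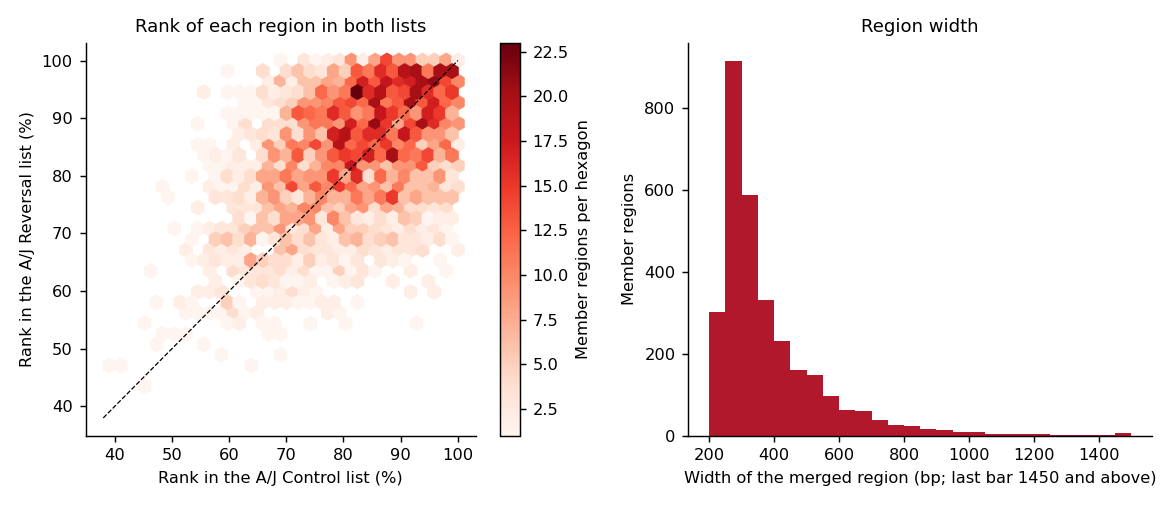
Left, rank of each of the 3072 regions in the A/J Control list (horizontal) and in the A/J Reversal list (vertical), in percent with 0 as the strongest, coloured by the number of regions per hexagon; the dashed line marks equal rank. Right, number of regions by width of the merged region in bp. The middle 50% of regions lie between 74.4% and 90.8% on the horizontal and between 76.9% and 92.6% on the vertical axis, and 39.6% of regions are under 300 bp wide.

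The strongest region on Control lay on chromosome 6 from 121121051 to 121121577 in mm9, with signals of 0.352 on Reversal and 0.453 on Control, at ranks of 47.9% and 39.4%. It also held C57BL/6J peaks of 0.106 on HF, 0.249 on Reversal and 0.103 on Control. The HF gap around it in A/J was 17001 bp and lacked 6 numbers. It is thus a region open in 5 of the 6 lists, and the strongest of its C57BL/6J peaks was on Reversal, at a rank of 45.3%.

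The next in order of Control signal lay on chromosome 4 from 140903098 to 140903828, with 0.362 on Reversal and 0.432 on Control. Its C57BL/6J peaks were 0.0903 on HF and 0.171 on Reversal, with none on Control, and an A/J HF region lay 149 bp away. The strongest Reversal peak of all, 0.395 at a rank of 44.2%, was on chromosome 10 from 80429006 to 80429466, where the Control signal was 0.381, and C57BL/6J had a peak of 0.112 on Reversal only. A region on chromosome 9 from 48554642 to 48554981 had 0.356 on Reversal and 0.223 on Control, ranks of 47.6% and 63.9%, and no C57BL/6J peak. The first 3 of these regions share a C57BL/6J Reversal peak, and only 1 of the 3 has a C57BL/6J Control peak. Genes at these places are not named, because the annotation at hand is of an assembly other than mm9.

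The widest region spanned 2628 bp on chromosome 5 from 113574478 to 113577105, with a Control peak over its whole length at 0.186 and a Reversal peak of 880 bp at 0.143, and an A/J HF region lay 55 bp away. C57BL/6J had a peak of 0.114 there on Reversal only. The next was 1944 bp wide on chromosome 2 from 164681623 to 164683566, with 0.139 on Reversal and 0.199 on Control. It held all 3 C57BL/6J peaks, with signals of 0.155 on HF, 0.295 on Reversal and 0.215 on Control, and an A/J HF region was 41 bp away. The third, 1811 bp wide on chromosome 6 from 48615047 to 48616857, had 0.146 on Reversal and 0.188 on Control, with summits 808 bp apart, and its next A/J HF region was 8825 bp away. The first 2 of the 3 widest regions thus lay close to a region that was listed on HF.

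No chromosome held a share of these regions that stood apart from the rest. They made up 8.71% of the 35268 A/J Control regions, and by chromosome between 7.64% on chromosome 10 (6.47 to 8.998) and 9.83% on chromosome 18 (8.07 to 11.9). The interval of each of the 19 autosomes held 8.71%. The median distance to the next region with an A/J HF peak was 6034.5 bp, against 6176 bp from regions with all 3 A/J peaks and 4879 bp from regions with a Control peak alone. An A/J HF region lay within 500 bp of 387 regions (12.6%), against 15.5% of regions with all 3 A/J peaks and 17.7% of regions with a Control peak alone. The differences were -2.89 points (Newcombe interval -4.09 to -1.60) and -5.12 points (-7.10 to -3.18). When peaks up to 500 bp apart were merged, 2665 regions met the rule.

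The regions were mostly single. The median distance from one to the next was 82997 bp, against a median of 101221 bp from regions with all 3 A/J peaks to the next of these regions and 80106 bp from regions with a Control peak alone. With gaps of up to 10 kb allowed, 2609 stood alone, 180 pairs and 33 groups of 3 formed, and 1 group held 4. The group of 4 spanned 25144 bp on chromosome 8 from 124814700 to 124839843, with 4 A/J HF peaks between its members. Its Reversal signals were 0.228, 0.157, 0.234 and 0.153 and its Control signals 0.182, 0.141, 0.182 and 0.163, in order of position. Only its first member had C57BL/6J peaks, in all 3 lists.

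Presence in C57BL/6J liver, which the rule did not use, was rare. A peak in 1 or more C57BL/6J lists was found at 631 of the 3072 regions, a share of 20.5% (19.1 to 22.0), against 71.9% of all regions with an A/J peak. The other 2441 regions (79.5%) had a peak in none of the 3. By list, 11.6% had a peak on C57BL/6J HF (10.5 to 12.8), 15.5% on Reversal (14.3 to 16.9) and 9.73% on Control (8.73 to 10.8), where all regions with an A/J peak had 65.5%, 66.3% and 61.8%. mm9 is the only assembly in the processing notes, so openness that differs by strain and reads that map differently by strain cannot be told apart.

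Classes of A/J regions fell apart in this share by whether they held an A/J HF peak. Each class of A/J regions without an HF peak was seldom found in C57BL/6J: 20.5% of the 3072 regions, 19.6% of 2291 with a Control peak alone (18.1 to 21.3) and 12.1% of 1466 with a Reversal peak alone (10.6 to 13.9). Each class with an HF peak was found there more often: 46.9% of 495 with HF and Reversal (42.5 to 51.3), 62.9% of 1194 with HF and Control (60.1 to 65.6), 75.4% of 1916 with HF alone (73.4 to 77.3) and 85.2% of 28711 with all 3 (84.8 to 85.6). Between the 3072 regions and those of Control alone the difference was 0.898 percentage points (Newcombe interval -1.28 to 3.05). By single list the differences from Control alone went both ways: 2.41 points on C57BL/6J HF (0.753 to 4.04), 2.56 on Reversal (0.667 to 4.43) and -3.19 on Control (-4.94 to -1.48). Between them and those of HF and Control without Reversal it was -42.4 points (-45.4 to -39.2).

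**Figure D4:**
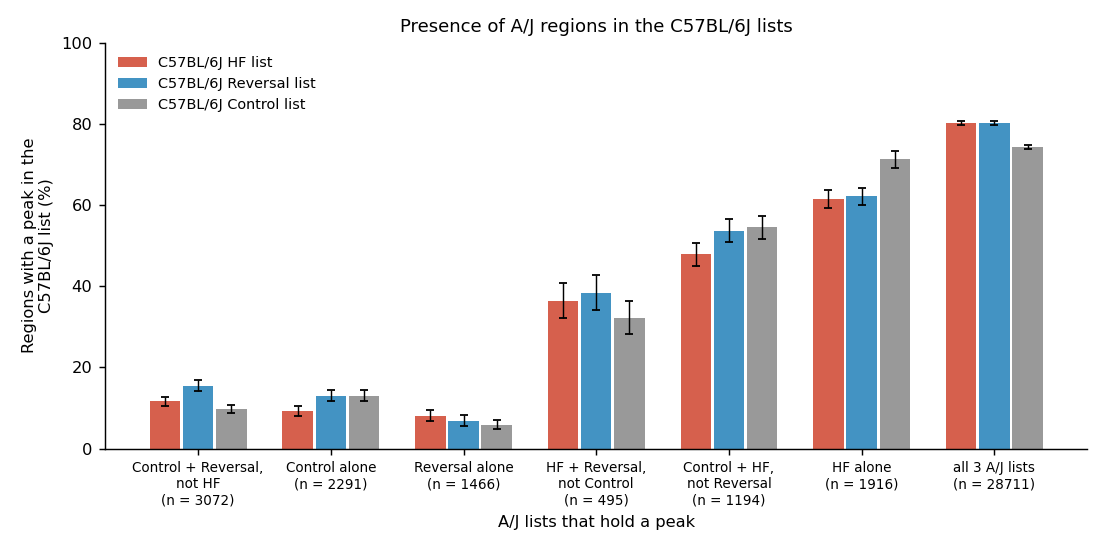
Percentage of A/J regions with a peak in each C57BL/6J list (HF, Reversal, Control), by the A/J lists that hold a peak, with the number of regions under each class; bars are 95% Wilson intervals. The 3 classes on the left, which lack an A/J HF peak, lie at or under 15.5%, and the 4 classes on the right, which have one, lie between 32.1% and 80.3%.

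The difference was also present at matched rank. At an A/J Control rank of 60 to 80%, 24.8% of 1146 regions without HF had a C57BL/6J peak (22.4 to 27.4), against 63.1% of 5461 regions with all 3 A/J peaks (61.8 to 64.4), a difference of -38.3 points (-41.1 to -35.5). At 80 to 100% the shares were 16.7% of 1829 (15.1 to 18.5) and 55.3% of 2058 (53.1 to 57.4), a difference of -38.6 points (-41.3 to -35.8). Regions with a Control peak alone stood at 28.1% and 18.9% in these bins, with differences of -3.31 points (-10.7 to 3.30) and -2.22 points (-4.60 to 0.185). For a peak in 1 or more C57BL/6J lists the interval thus held 0 against the regions with a Control peak alone, and lay below 0 against those with all 3 A/J peaks. By single list at 80 to 100%, the difference from Control alone on C57BL/6J Control was -3.62 points (-5.55 to -1.67), while the intervals on C57BL/6J HF and Reversal held 0. Regions of a single A/J list were found in C57BL/6J most often where that list was HF, and the part of the A/J HF list as a whole in this split was not tested.

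**Figure D5:**
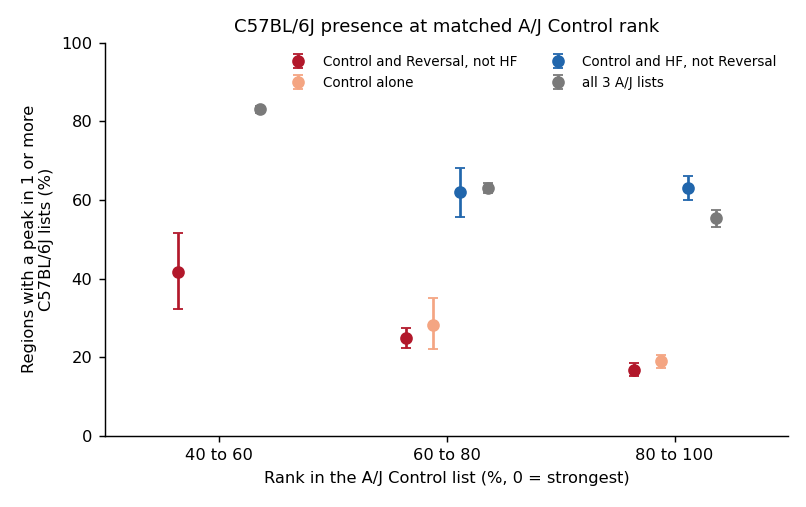
Percentage of A/J regions with a peak in 1 or more C57BL/6J lists (vertical), by rank of their A/J Control peak in bins of 20% (horizontal, 0 is the strongest), for 4 classes of A/J regions; bars are 95% Wilson intervals, and classes with fewer than 20 regions in a bin are not drawn. In each drawn bin the regions of Reversal and Control without HF, 41.7%, 24.8% and 16.7%, lie below those with all 3 A/J peaks.

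Among the 631 regions found in C57BL/6J, the Reversal list held the most and the Control list the fewest. A Reversal peak was present at 477 of them (75.6%), an HF peak at 357 (56.6%) and a Control peak at 299 (47.4%), against 92.5%, 91.9% and 86.8% of the 27525 other A/J regions with a C57BL/6J peak. The pattern of all 3 C57BL/6J lists was held by 176 (27.9%, 24.5 to 31.5), and that of Reversal alone by 172 (27.3%, 23.9 to 30.9), against 80.6% and 3.46% of those other regions. The pattern of C57BL/6J Control alone was held by 61 (9.67%, 7.60 to 12.2). Of the 450 regions with an A/J Control peak alone that were found in C57BL/6J, 18.9% had Reversal alone there (15.5 to 22.8) and 19.3% had Control alone (16.0 to 23.2). Of the 3072 regions, 5.60% had a C57BL/6J peak on Reversal alone and 5.73% on all 3 diets, against 2.87% and 57.1% of all regions with an A/J peak. Exactly 1 C57BL/6J list held a peak at 305 of the 3072 regions (9.93%), against 7.41% of all regions with an A/J peak. At matched A/J Control rank the direction varied. At 40 to 60% the share was 21.9%, against 11.5% of regions with all 3 A/J peaks. At 60 to 80% the shares were 11.6% and 13.0%, and at 80 to 100% they were 8.26% and 11.4%.

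The other patterns in C57BL/6J were close to the share over all regions with an A/J peak or below it. HF alone was held by 72 of the 3072 regions (2.34%), against 2.93%, and Control alone by 61 (1.99%), against 1.62%. HF and Reversal without Control was held by 88 (2.86%), against 4.32%, and HF and Control without Reversal by 21 (0.684%), against 1.12%.

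The gap between C57BL/6J Reversal and the other C57BL/6J lists was widest among the stronger regions. At an A/J Control rank of 40 to 60%, 19 of 96 regions had a C57BL/6J HF peak (19.8%, 13.0 to 28.9), 37 had a Reversal peak (38.5%, 29.4 to 48.5) and 9 had a Control peak (9.38%, 5.01 to 16.9). Regions with all 3 A/J peaks at that rank stood at 75.8%, 75.7% and 63.2%. At 80 to 100% the 1829 weakest regions had 9.62%, 11.5% and 9.08%.

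The same pattern in C57BL/6J, with peaks on Reversal and Control and none on HF, was held by 41 of the 3072 regions, 1.33% (0.985 to 1.81), where 1.93% of all regions with an A/J peak held it. That share is a little below the background, and no excess of the pattern was seen in C57BL/6J. Among regions able to show it the picture differed. Of the 217 regions with C57BL/6J peaks on both Reversal and Control, 41 lacked the HF peak, or 18.9% (14.2 to 24.6), against 714 of 22907 other A/J regions, or 3.12% (2.90 to 3.35). At a C57BL/6J Control rank of 60 to 80% the shares were 12 of 82 (14.6%, 8.57 to 23.9) and 8.79% of 3184 (7.86 to 9.83), and at 80 to 100% they were 29 of 94 (30.9%, 22.4 to 40.8) and 20.7% of 1835 (18.9 to 22.6). The differences were 5.84 points at 60 to 80% (Newcombe interval -0.307 to 15.1), which held 0, and 10.1 points at 80 to 100% (1.497 to 20.2), which did not. At 40 to 60% none of 37 regions lacked the HF peak (0 to 9.41), against 1.09% of 4967 other A/J regions. The other classes without an A/J HF peak showed the pattern as well. With an A/J Control peak alone, 67 regions held it and 118 had a peak in all 3 C57BL/6J lists. With an A/J Reversal peak alone these were 14 and 41, against 41 and 176 of the 3072 regions. Among regions with both C57BL/6J peaks, the pattern was thus more frequent in those classes than here.

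Of the regions with this pattern in both strains, the strongest lay on chromosome 8 from 81870326 to 81870673, with A/J signals of 0.266 on Reversal and 0.285 on Control and C57BL/6J signals of 0.181 and 0.117. The next lay on chromosome 6 from 72690611 to 72691216, with A/J signals of 0.137 on Reversal and 0.273 on Control. Its C57BL/6J signals were 0.0966 and 0.0974, and the first of these ranked at 99.9% of the Reversal list. A region on chromosome 17 from 28165000 to 28165464 had 0.179 and 0.264 in A/J and 0.147 and 0.100 in C57BL/6J. In the first and last of these, the C57BL/6J signal was higher on Reversal than on Control while the A/J signal was lower, but signals of different lists share no known scale.

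Where C57BL/6J peaks were present they too were weak, with median ranks of 83.7% on HF, 83.8% on Reversal and 81.4% on Control, against 37.5%, 37.6% and 33.5% for regions with all 3 A/J peaks. The other classes without an A/J HF peak had medians close to these: 83.9%, 84.9% and 82.1% with a Control peak alone, and 83.0%, 82.9% and 77.2% with a Reversal peak alone. Across regions, their ranks had little relation to the A/J Control rank, with Spearman's rho of -0.04 over 357 regions on HF and -0.09 over 299 on Control. The summits lay at the A/J place, a median of 13, 11 and 13 bp from the A/J Control summit. A few regions were strong in C57BL/6J. The one with the highest C57BL/6J HF signal, on chromosome 8 from 126789447 to 126790166, had 0.539 on HF, 0.676 on Reversal and 0.302 on Control in C57BL/6J, at ranks of 19.1%, 18.6% and 29.9%, and 0.216 on Reversal and 0.146 on Control in A/J. The next, on chromosome 9 from 40590291 to 40590685, had 0.445, 0.444 and 0.444 in C57BL/6J against 0.173 on Reversal and 0.155 on Control in A/J. Its C57BL/6J ranks were 23.5% on HF, 28.6% on Reversal and 20.2% on Control.

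The 2441 regions with no C57BL/6J peak were narrower than the 631 with one, with a median of 313 against 380 bp, and ranked weaker on A/J Control, at 83.8% against 79.4%, but not on A/J Reversal, at 85.2% against 85.7%. Their distance to the next region open in all 6 lists was a median of 11755 bp against 11308 bp. The strongest of them on Control lay on chromosome 16 from 10976407 to 10976844, with 0.179 on Reversal and 0.341 on Control, and on chromosome 2 from 165923692 to 165924522, with 0.319 on Reversal and 0.339 on Control. A region on chromosome 5 from 151968918 to 151969242, 23232 bp from the next A/J HF region, had 0.305 on Reversal and 0.330 on Control. As in A/J HF, most regions absent from the C57BL/6J lists lay in gaps with missing numbers: at 2357 of the 2441 regions the gaps of all 3 C57BL/6J lists lacked 1 or more numbers. Such gaps were common in these lists: of gaps of 20 to 50 kb that held no region of another list, 79.2% on C57BL/6J HF, 83.1% on Reversal and 87.6% on Control lacked a number. At 84 regions 1 or more C57BL/6J lists had numbered no peak between the listed neighbours, and at 4 regions this held for all 3.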

How the data were processed

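FAIRE-seq peak lists of A/J and C57BL/6J liver were analysed, 1 per strain and diet. Bowtie2, TopHat, DESeq2 and the assembly mm9 are listed in the submitters' processing notes, without versions or roles. In the sources used here the peak caller, its filter and any pooling of libraries are not given. Each peak's signal is the authors' deposited value with no stated normalization, and sequencing depth is unknown. Strain and diet of each list come from its name and groups from the sample titles. The Reversal diet tag gives 16 weeks of control diet and the treatment protocol 8, which was followed. Peaks on chromosomes 1 to 19 were merged at 1 bp of overlap (Python 3.11.15, pandas 2.3.3). The merge equalled that of bedtools 2.31.1, and class assignment was tested on simulated lists. A region's signal and rank are those of its strongest peak, with ranks taken within the autosomal list. Intervals are 95% Wilson and Newcombe intervals. Regions named were the 3 with the highest A/J Control, A/J Reversal and C57BL/6J HF signal, the 3 widest, the 3 strongest with no C57BL/6J peak and with the same pattern there, the largest group and those at the end of a list, some of which are given. The members, classes, bins, the split by C57BL/6J presence and the serial-number measure were chosen with earlier results of these data known. The deposited expression tables give no positions and were not used. Positions are 1-based in mm9. Alternatives were 7, with effects in the closing section.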

Additional observations from a re-analysis of the deposited data

How the results depend on the processing

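The number of regions stayed within 1.5 times of 3072 under 6 of 7 alternatives, from 2050 with lists of equal length to 3371 with 150 bp on either side of the summit. It was 629 when Reversal and Control peaks had to be in the strongest 80% and the HF list was kept whole. Under that alternative 25.4% of regions had a C57BL/6J peak. The median ranks were 71.6% on Reversal and 69.9% on Control and the median width was 349 bp, as its construction removes weak peaks. Of 1423 HF-lost regions with a Control peak in the strongest 80%, 44.2% had a Reversal peak in the strongest 80%. Weaker Reversal peaks counted as absent there, so this is not the same measure as the 57.3% first computed. With the strongest 80% of each list, 1.85% of regions had the same pattern in C57BL/6J, 58.6% of HF-lost regions had a Reversal peak, the ranks were 86.1% on Reversal and 84.2% on Control and the width 360 bp. With lists of equal length, 23.9% had a C57BL/6J peak, 59.99% of HF-lost regions had a Reversal peak, the ranks were 86.5% on Reversal and 85.4% on Control and the width 338 bp, and 1591 of the 2050 regions were among the 3072. With peaks up to 500 bp apart merged, 22.2% had a C57BL/6J peak and 59.4% of HF-lost regions a Reversal peak. With summits, 23.8% had a C57BL/6J peak, and the ranks were 84.3% on Reversal and 81.8% on Control. The width there, 310 bp, follows from the fixed window of 150 bp on either side of each summit. Beyond these effects of construction, causes were not tested. The other 27 of 49 values stayed within the interval of the first value or, for counts, within 1.5 times; none of the 7 results changed by more under an overlap of 100 bp or more or with the 3 A/J lists merged alone. Leaving out a library could not be run, because each group has 1 list. No paired analysis was possible because the lists carry no replicate numbers. Depth is unknown, so its effect on which regions reach a list was not tested.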

Other observations

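By chromosome, the share of the 3072 regions with a C57BL/6J peak was lowest on chromosome 16, at 8 of 92 regions (8.70%), and ran from 15.7% on chromosome 12 to 25.6% on chromosome 9 on the other autosomes. Chromosome 16 was singled out after its value was seen. The share over all A/J regions is not given by chromosome, so whether the low value is particular to these regions is not known.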
